A study of Mus musculus with 24 samples.

Results

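Fatty acid and cholesterol synthesis was followed through 33 genes: 4 regulators, 12 genes of the lipogenic branch, which makes and modifies fatty acids and builds them into triglyceride, and 17 genes of the sterol branch, which makes cholesterol from acetyl units or moves it. The genes were a given list of pathway members, not picked by measured level, though earlier results of these data were known. Each gene was read at its probe of highest mean signal over the 24 arrays. All 33 had a probe on the array, out of 21368 genes that carried a symbol. RNA levels were measured in 6 female mice on 24 single-colour Agilent arrays, 1 array for each of 4 tissues: brain, liver, skeletal muscle and heart. In 3 mice (called A, B and C here) the Rap1 gene, Terf2ip, carried the I312R knockin (KI) point mutation, labelled RAP1 MUT, and 3 littermates (D, E and F) were wild type (WT). The line was made with CRISPR/Cas9 and backcrossed 4 times to C57BL6, and the study describes the KI mice it profiled as homozygous. Mice A, B, D and E were 15 months old, and mice C and F were 14 months old. The design asks whether RNA levels differed between KI and WT in each tissue, with 3 mice a genotype. RAP1 is a protein of the telomere cap that also acts outside telomeres, and the mutated residue is required for binding its partner TRF2.

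As background, fatty acids and cholesterol are both built from cytosolic acetyl-CoA. SREBP-1 (gene Srebf1) and ChREBP (gene Mlxipl) are transcription factors that turn on the lipogenic genes, in liver above all after feeding. SREBP-2 (gene Srebf2) turns on the sterol genes when membrane cholesterol runs low, and Insig1 holds the SREBP proteins back in the endoplasmic reticulum while sterols are plentiful. SREBP proteins act at promoters together with NF-Y, which binds the CCAAT box, and Sp1, which binds GC boxes. Liver exports the products in lipoproteins, whereas the brain makes its own cholesterol because plasma lipoproteins do not cross the blood-brain barrier.

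The promoters of the members shared sequence that the list had not used. RefSeq promoter windows (GRCm38.p6), read here over the 250 bases before each transcription start, were at hand for 25 of the 33 genes, 32 windows in all. The NF-Y letters CCAAT, on either strand, stood in at least 1 window of 21 of the 25 genes, beside 37.5% of all 27025 genes in the table and 39.4% of the 13671 of them that were tested on these arrays. All 13 sterol genes with a window held the box, against 4 of 8 lipogenic genes and all 4 regulators. The GC box GGGCGG was present in 12 of 13 sterol genes and 3 of 8 lipogenic genes, beside 56.0% of the tested genes. The sterol regulatory element core TCACNCCAC was found for Hmgcs1 and Mlxipl, 2 of the 25 members, beside 1.28% of the tested genes. The E-box TCACGTGA was present in none of the 25 members, beside 1.42% of the tested genes, and its inner part CACGTG, which any TCACGTGA also holds, in 6 of 25, beside 9.0%. A match describes the letters only. Genes with several windows had more chances of a match. The 4 windows below are shown because they hold the sterol element or several CCAAT boxes. Capitals mark CCAAT, its reverse complement or the sterol element, and each sequence runs 5′ to 3′ on the gene's own strand.
Hmgcs1 (HMG-CoA synthase, chr13:119690101-119690350, + strand): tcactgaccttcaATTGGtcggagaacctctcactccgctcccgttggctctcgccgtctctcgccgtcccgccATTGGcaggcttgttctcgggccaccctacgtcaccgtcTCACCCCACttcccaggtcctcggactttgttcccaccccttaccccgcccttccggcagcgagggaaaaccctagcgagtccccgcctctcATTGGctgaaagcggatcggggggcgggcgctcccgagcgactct
Mvk (mevalonate kinase, chr5:114444019-114444268, + strand): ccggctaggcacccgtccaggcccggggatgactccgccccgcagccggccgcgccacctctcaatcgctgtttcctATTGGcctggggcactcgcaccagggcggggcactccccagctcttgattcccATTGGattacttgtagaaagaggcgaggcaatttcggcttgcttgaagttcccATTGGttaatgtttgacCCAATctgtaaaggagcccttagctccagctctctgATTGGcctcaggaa
Fasn (fatty acid synthase, chr11:120824548-120824797, - strand): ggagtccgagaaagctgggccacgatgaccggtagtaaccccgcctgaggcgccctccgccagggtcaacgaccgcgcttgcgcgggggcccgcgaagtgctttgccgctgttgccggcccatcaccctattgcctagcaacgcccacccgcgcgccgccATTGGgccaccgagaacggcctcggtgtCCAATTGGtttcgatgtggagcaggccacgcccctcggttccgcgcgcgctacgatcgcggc
Mlxipl (ChREBP, downstream start, chr5:135106641-135106890, + strand): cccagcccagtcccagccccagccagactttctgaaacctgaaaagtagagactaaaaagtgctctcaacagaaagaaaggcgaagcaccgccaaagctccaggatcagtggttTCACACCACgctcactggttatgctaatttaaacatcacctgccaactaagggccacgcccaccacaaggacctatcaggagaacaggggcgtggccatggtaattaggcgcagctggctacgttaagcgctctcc
Hmgcs1 held 3 CCAAT boxes around 1 sterol element that began 137 bases before the start, Mvk held 5 boxes, and Fasn held 3, of which 2 overlapped on opposite strands.

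Signal was scaled by subtracting each array's 75th percentile of log2 signal, so every level below is a log2 value relative to that point, and a probe is compared only with itself across arrays. The 75th percentile signal lay between 312 and 2519 units, and between 49.4% and 68.4% of probes were well above background. Marker lists of another tissue stood high on 4 arrays, and 2 brown fat genes on the muscles of mice B and D. All 12 hepatocyte markers were at their highest of 6 brains in mouse C, 9 of 10 skeletal muscle markers were highest in the liver of mouse C, 11 of 12 mammary markers in the muscle of mouse B, and 8 of 13 adipocyte markers in the heart of mouse B. Terf2ip itself, whose point mutation need not alter its RNA level, was -0.33 in KI minus WT in liver (SE 0.21, limma adjusted p = 0.515) and between -0.15 and -0.07 in the other tissues, with the genotypes overlapping in each tissue. All markers of the labelled tissue (12 of hepatocytes, 8 of neurons, 9 of cardiomyocytes and 10 of skeletal muscle) were well above background on every array of that tissue.

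Nearly the whole pathway was highest in liver. The mean level was highest in liver for 31 of 33 genes, beside 29.7% of the 17177 genes tested over all arrays, and the same 31 genes were counted after quantile normalization. The exceptions were Scd2, highest in brain, and Acacb, highest in muscle. Across the 33 genes, 9 followed the order liver, brain, heart, muscle and 12 the order liver, brain, muscle, heart. Of the 99 pairs of neighbours in these orders, 13 did not pass the test, so their order is not settled. In bulk tissue, fewer cells of a type and less RNA per cell cannot be told apart.

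**Figure D1:**
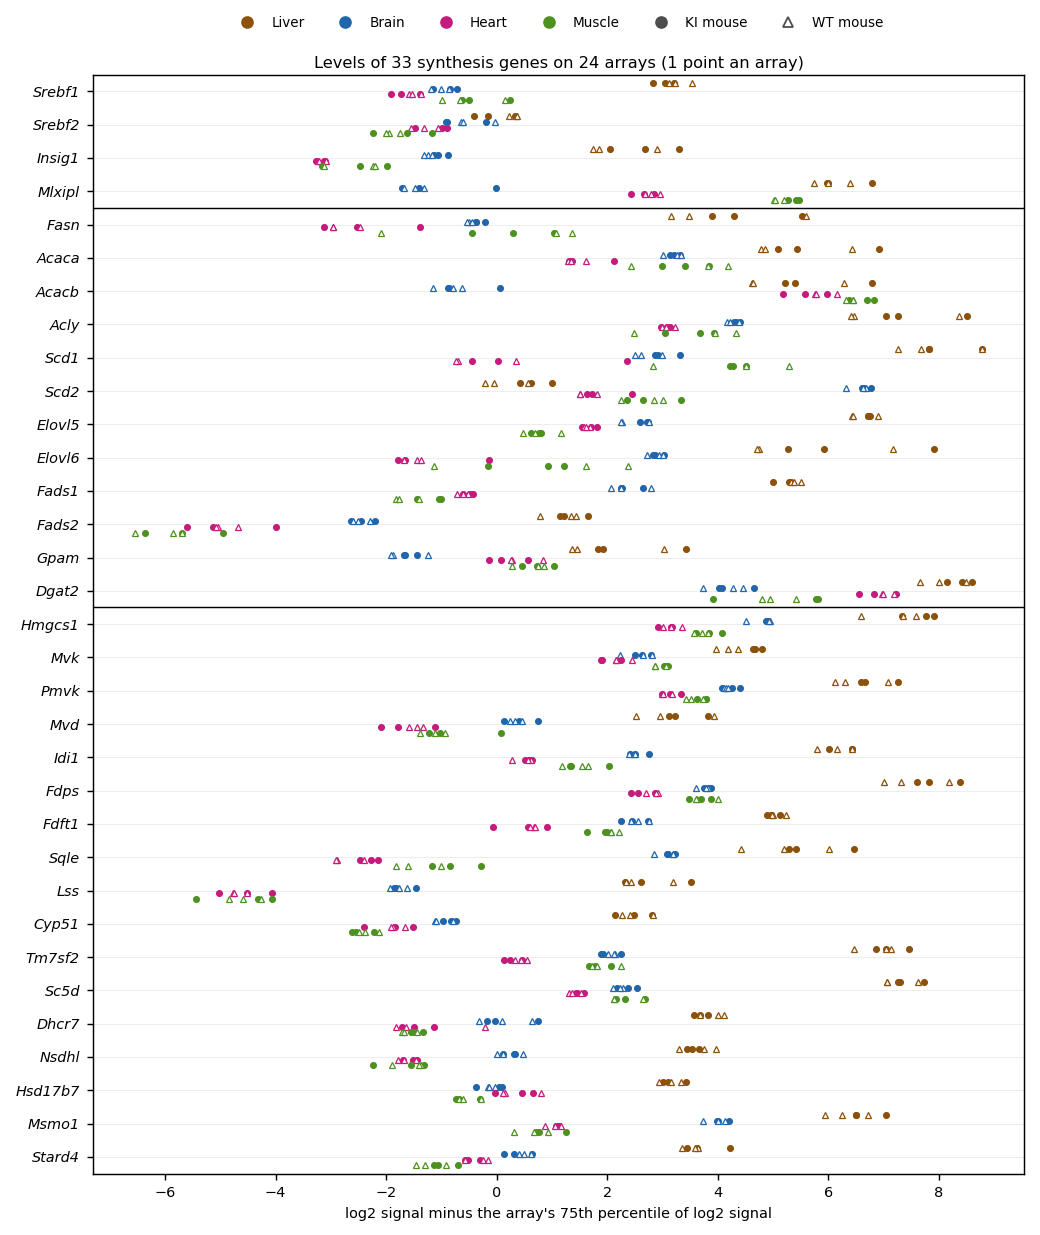
Level of each of the 33 genes on each of the 24 arrays, as log2 signal minus the array's 75th percentile (horizontal axis). Each gene has its 4 tissues one under the other in colour, filled circles are KI mice and open triangles are WT mice, and lines separate regulators (top), lipogenic branch (middle) and sterol branch (bottom). Liver points stand to the right of all others for every gene but Scd2, Acacb and Srebf2, whose liver and brain points overlap, and KI and WT points are mixed within tissues.

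Liver against brain, 32 members were higher in liver (background 45.8% of 17177 genes) and 1 was lower (background 38.6%) by limma with Benjamini-Hochberg adjustment over all genes tested. Liver against heart, 31 were higher (35.1%) and 1 lower (38.9%). Liver against muscle, 31 were higher (35.3%) and 2 lower (44%). The median difference over the members was 3.41 against brain, 4.82 against heart and 4.12 against muscle, beside 0.20, -0.05 and -0.22 over all genes. Brain against heart, 28 members were higher in brain (35.2%) and 5 lower (44.1%). Brain against muscle, 20 were higher in brain (35.5%) and 7 lower (46.7%), a split that was 24 against 4 after quantile normalization. Heart against muscle, 8 were higher in heart (29.4%) and 19 lower (35.3%). Without the 4 arrays on which markers of another tissue stood high, these counts stayed within 2 of the values above. Liver and brain RNA was extracted with another kit than heart and muscle RNA, and muscle arrays shared a slide with heart arrays only, as liver arrays did with brain arrays only. So liver or brain against heart or muscle cannot be told apart from the kit, nor, apart from brain against heart, from the slide. Within the slide that liver shared with 2 brain arrays, all 33 members called between liver and brain differed in the same direction, as did all 33 called between brain and heart and all 27 called between heart and muscle on their shared slides.

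The regulators did not follow one order. Srebf1 ran from 2.83 to 3.53 in the 6 livers (median 3.16), from -0.995 to 0.24 in muscle (median -0.56), from -1.18 to -0.71 in brain (median -0.93) and from -1.92 to -1.37 in heart (median -1.55). The livers stood clear of all other tissues, 11.8-fold above muscle (95% interval 9.08 to 15.3, adjusted p = 9.41e-13). Srebf2 spanned the narrowest range of all 33 genes: its tissue means were 0.12 for liver, -0.55 for brain, -1.22 for heart and -1.79 for muscle, a 3.75-fold range. Insig1, the sterol-sensing brake, had medians of 2.36 in liver, -1.15 in brain, -2.35 in muscle and -3.18 in heart, and its 6 hearts lay between -3.28 and -3.09. Mlxipl was high in liver (5.74 to 6.78, median 5.99) and muscle (5.02 to 5.46, median 5.23), intermediate in heart (2.43 to 2.95, median 2.74) and low in brain (median -1.44). Its 5 other brains lay at -1.32 or below, and the brain of mouse C, in which all 12 hepatocyte markers were highest, at -0.01. A second Mlxipl probe was highest in muscle (mean 3.48) and heart (3.37) rather than liver (2.09), so the top tissue of this gene depends on the probe.

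In the lipogenic branch the widest measured ranges of tissue means were those of Scd1, Elovl6 and Acacb, the last on its brighter probe, while that of Fads2, not above background in muscle, is known only as a bound. Scd1, the stearoyl-CoA desaturase of liver and fat, ran from 7.26 to 8.78 in liver (median 7.82), from 2.83 to 5.29 in muscle (median 4.39), from 2.50 to 3.32 in brain (median 2.89) and from -0.74 to 2.36 in heart (median -0.21). Liver exceeded heart 236-fold (95% interval 124 to 449, adjusted p = 5.56e-12). Scd2, its relative that is prominent in brain, ran the other way, from 6.32 to 6.77 in brain and from -0.22 to 1.00 in liver, 74.7-fold lower in liver (95% interval 56.3 to 99.1, adjusted p = 5.04e-16). No brain array overlapped any other tissue for Scd2.

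Acacb, the mitochondrial acetyl-CoA carboxylase whose malonyl-CoA restrains fatty acid oxidation, ran from 6.32 to 6.82 in muscle (median 6.44), from 5.18 to 6.15 in heart (median 5.77) and from 4.61 to 6.79 in liver (median 5.31). Heart and liver did not pass the test (liver minus heart -0.24, SE 0.29, adjusted p = 0.472), though they did after quantile normalization, and the liver arrays overlapped those of both heart and muscle. In brain it lay between -1.16 and 0.06, 87.2-fold below heart (95% interval 56.8 to 134). A second Acacb probe had its highest mean in liver (1.12) and then muscle (0.90), heart (0.69) and brain (-4.66). Brain was lowest and muscle was above heart on both probes, while the place of liver differed. Heart against muscle passed for Acacb in the main fit, but not with quantile normalization, normexp correction or the mean of all probes. Acaca, the cytosolic carboxylase that feeds fatty acid synthesis, ran from 4.79 to 6.92 in liver (median 5.26), with medians of 3.61 in muscle, 3.23 in brain and 1.35 in heart. Muscle and brain did not pass the test for Acaca.

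Fasn, the fatty acid synthase, ran from 3.16 to 5.59 in liver (median 4.09), from -2.09 to 1.36 in muscle (median 0.67), from -0.55 to -0.22 in brain (median -0.42) and from -3.12 to -1.39 in heart (median -2.74). Brain and muscle did not pass the test for Fasn (difference -0.62, SE 0.53, adjusted p = 0.286), and the muscle arrays lay on both sides of the brain arrays. Elovl6, which lengthens palmitate to stearate, had medians of 5.59 in liver, 2.90 in brain, 1.07 in muscle and -1.55 in heart, 158-fold from liver to heart (95% interval 69.1 to 360). The narrowest ranges of the branch were those of Gpam (14.0-fold between tissue means), Dgat2 (16.2-fold) and Acaca (16.97-fold). Dgat2 and Gpam, which build triglyceride, were also higher in heart than in brain, Dgat2 by 6.76-fold (95% interval 4.57 to 9.99), unlike Fasn, which was 4.46-fold higher in brain than in heart (95% interval 2.07 to 9.62).

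Fads2, the first desaturase of the polyunsaturated series, was well above background on all livers and brains, on 2 of 6 hearts and on no muscle array. Measured means were 1.26 for liver, -2.45 for brain, -4.92 for heart and -5.85 for muscle. With the muscle arrays set at the dimmest signal well above background, Fads2 was at least 53.4-fold higher in liver and at least 4.09-fold higher in brain than in muscle. Fads1, which acts after it, was measured on all 24 arrays, with medians of 5.32 for liver, 2.26 for brain, -0.56 for heart and -1.42 for muscle.

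In the sterol branch all 17 genes were higher in liver than in each other tissue, and 16 of 17 were higher in brain than in heart. The other comparisons were more mixed. Brain against muscle, 13 were higher in brain and 1, Mvk, lower, and heart against muscle, 3 were higher in heart and 10 lower. Sqle, squalene epoxidase, had the widest range of all 33 genes, from 4.42 to 6.46 in liver (median 5.35), 2.84 to 3.22 in brain (median 3.15), -1.82 to -0.28 in muscle (median -1.09) and -2.91 to -2.14 in heart (median -2.44). Its brain level was 49.0-fold above heart (95% interval 34.3 to 70.1) and 18.7-fold above muscle (95% interval 13.05 to 26.7), with no overlap of arrays. Lss, which closes squalene epoxide into lanosterol, was 162-fold lower in heart than in liver (95% interval 114 to 232, adjusted p = 2.58e-15), and was well above background on 1 of 6 muscle arrays. Tm7sf2, a sterol reductase, spanned 100.01-fold between tissue means.

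The narrowest sterol ranges were those of Mvk (4.97-fold), Pmvk (11.9-fold) and Hsd17b7 (13.02-fold), the first 2 being the successive kinases of mevalonate. Hmgcs1 ran from 6.59 to 7.91 in liver (median 7.46), with medians of 4.89 in brain, 3.77 in muscle and 3.15 in heart, and was 5.98-fold higher in liver than in brain (95% interval 4.79 to 7.46). Fdft1, squalene synthase, ran from 4.89 to 5.23 in liver (median 4.99), with medians of 2.51 in brain, 2.03 in muscle and 0.64 in heart. Hsd17b7 was the exception to the brain-over-heart pattern, 1.37-fold lower in brain (95% interval 1.10 to 1.70, adjusted p = 0.010), with arrays of the 2 tissues overlapping.

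Of the 14 members with several probes, 12 had the same highest tissue on every probe, and the other 2 were Acacb and Mlxipl, as above. Genes of the same pathways outside the list, chosen by name, were also mostly higher in liver than in brain (backgrounds 45.8% higher and 38.6% lower, as above). Of 12 other sterol genes tested, 10 were higher in liver than in brain and 2 lower, the latter being Ggps1 and Cyp46a1, the neuronal cholesterol 24-hydroxylase. Of 22 other lipogenic genes, 15 were higher in liver than in brain and 4 lower (Acsl3, Elovl4, Elovl7 and Fads3), and of 13 other genes of SREBP control 9 were higher and 1, Mbtps2, lower. Brain against heart, in contrast to the members, 7 other lipogenic genes were higher and 7 lower, 4 control genes higher and 6 lower, and 6 sterol genes higher and 3 lower. Brain against muscle the counts were 9 and 10, 3 and 9, and 7 and 1.

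Related genes changed their balance between tissues. For 5 pairs the log2 ratio of the 2 genes was formed within each mouse, and its change between tissues was tested over the 6 mice by an exact two-sided sign-flip permutation test. In this design p cannot fall below 0.03125, and 21 of the 30 tests reached that value, which is 0.0446 after Benjamini-Hochberg adjustment. In each of those 21 all 6 mice moved the same way. A ratio between 2 probes has no meaning as a level, so only its change is given.

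Scd1 over Scd2 was 11.38 log2 units higher in liver than in brain (SD 0.49, n = 6, range over mice 10.49 to 11.80) and 6.10 higher in liver than in muscle (SD 0.71). All 6 tissue pairs passed the test for these desaturases. Acaca over Acacb was 8.16 higher in brain than in heart (SD 0.78, range 7.07 to 9.30) and 7.001 higher in brain than in muscle (SD 0.91), and it was 4.33 higher in liver than in heart (SD 0.82). The difference between heart and muscle, -1.16 (SD 0.71), passed on the brightest probes but not on the mean of all probes. Srebf1 over Srebf2 was 3.45 higher in liver than in brain (SD 0.32) and -1.76 in heart minus muscle (SD 0.74), while brain and heart differed by -0.04 (SD 0.54, exact p = 0.969), with mice on both sides of 0.

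Elovl6 over Elovl5, the pair that lengthens saturated and polyunsaturated chains respectively, was 3.35 higher in brain than in heart (SD 0.61) and -3.06 in heart minus muscle (SD 1.28). Liver minus brain was -1.05 (SD 1.33, adjusted exact p = 0.204), with 2 mice above 0, the livers of A and E having the 2 highest ratios. Fads2 over Fads1 was 0.79 higher in liver than in brain (SD 0.39, range 0.04 to 1.11, all 6 mice). The other tissue pairs of that ratio rest on Fads2 values near background, and none of them passed.

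**Figure D2:**
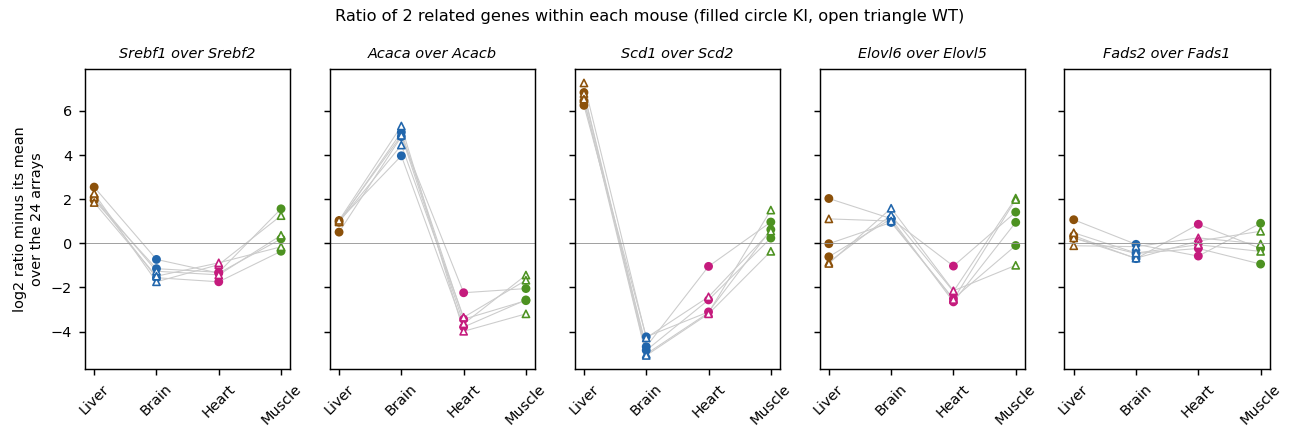
Log2 ratio of 2 related genes within each mouse, minus the mean of that ratio over the 24 arrays (vertical axis), by tissue. Grey lines join the tissues of 1 mouse, filled circles are KI and open triangles WT. Scd1 over Scd2 falls by 11.38 log2 units from liver to brain and Acaca over Acacb peaks in brain. Fads2 was not well above background in muscle, so its ratio there is not a measured level.

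Within liver the lipogenic genes varied more between mice than genes in general, and they varied together. The SD within genotype had a median of 0.79 over the 12 lipogenic genes and 0.32 over the 17 sterol genes, beside 0.21 over all 14074 genes tested in liver. In brain the same medians were 0.20 and 0.18, beside 0.22. Muscle was close to liver for the lipogenic genes, with medians of 0.72 and 0.23, beside 0.28. Heart had 0.34 and 0.18, beside 0.22. The livers of KI mouse A and WT mouse E stood high together. Their 2 livers were the 2 highest of 6 for 7 of 12 lipogenic genes, 8 of 17 sterol genes and 2 of 4 regulators, beside 8.84% of all genes tested in liver. Without the liver of mouse C, in which 9 of 10 skeletal muscle markers were highest, the counts were 10 of 12 and 9 of 17, beside 14.7%. With quantile normalization they were 7 of 12 and 6 of 17, beside 6.3%. The arrays of livers A and E also had the lowest 75th percentile signals of the 6, 624 and 546 units against 685 to 1343. Their hepatocyte marker medians were 9.23 and 9.42, against 8.54 to 9.22 in the other livers. The part of array signal in this pattern was not tested.

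Elovl6 stood at 7.92 in mouse A and 7.17 in mouse E, and at 4.71 to 5.92 in the other 4 livers, a difference of means of 5.21-fold. Fasn stood at 5.52 and 5.59 against 3.16 to 4.29. Acly, which makes cytosolic acetyl-CoA from citrate, stood at 8.51 and 8.37 against 6.42 to 7.26. Acaca, at 6.92 and 6.44 against 4.79 to 5.43, Acacb, at 6.79 and 6.29 against 4.61 to 5.40, and Gpam, at 3.42 and 3.03 against 1.37 to 1.93, had the same gap. Scd1 stood at 8.77 and 8.78 against 7.26 to 7.83. The 2 high livers were 1 of each genotype.

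Not all members took part. Among the sterol genes the same 2 livers were highest for Sqle (6.46 and 6.004 against 4.42 to 5.41), Lss, Mvd, Fdps, Pmvk, Sc5d, Tm7sf2 and Stard4. They were not for Hmgcs1, Mvk, Idi1, Fdft1, Cyp51, Dhcr7, Nsdhl, Hsd17b7 or Msmo1, and not for Elovl5, Fads1, Fads2, Scd2 or Dgat2. Of the regulators, Insig1 (3.29 and 2.90 against 1.74 to 2.68) and Mlxipl (6.78 and 6.39 against 5.74 to 5.99) showed the gap. Srebf1 and Srebf2 did not, with Srebf1 at 3.201 and 3.53 against 2.83 to 3.23. Outside the list, 9 of 20 other lipogenic genes had A and E highest, among them Thrsp, Pklr, Me1 and Acss2, and 4 of 12 other sterol genes, among them Ebp and Lbr. The liver of WT mouse D was the lowest of 6 for 7 of 12 lipogenic and 12 of 17 sterol genes, beside 23.1% of all genes. It was also the lowest for 9 of 12 hepatocyte markers, whose summed level was 11.94 in D and 12.22 to 12.87 in the other livers. In the other tissues A and E were the 2 highest for 1 of 12 lipogenic genes in brain, 0 of 11 in heart and 1 of 11 in muscle, beside 8.42%, 12.4% and 22.6% of all genes, and for 7 of 16 sterol genes in muscle.

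**Figure D3:**
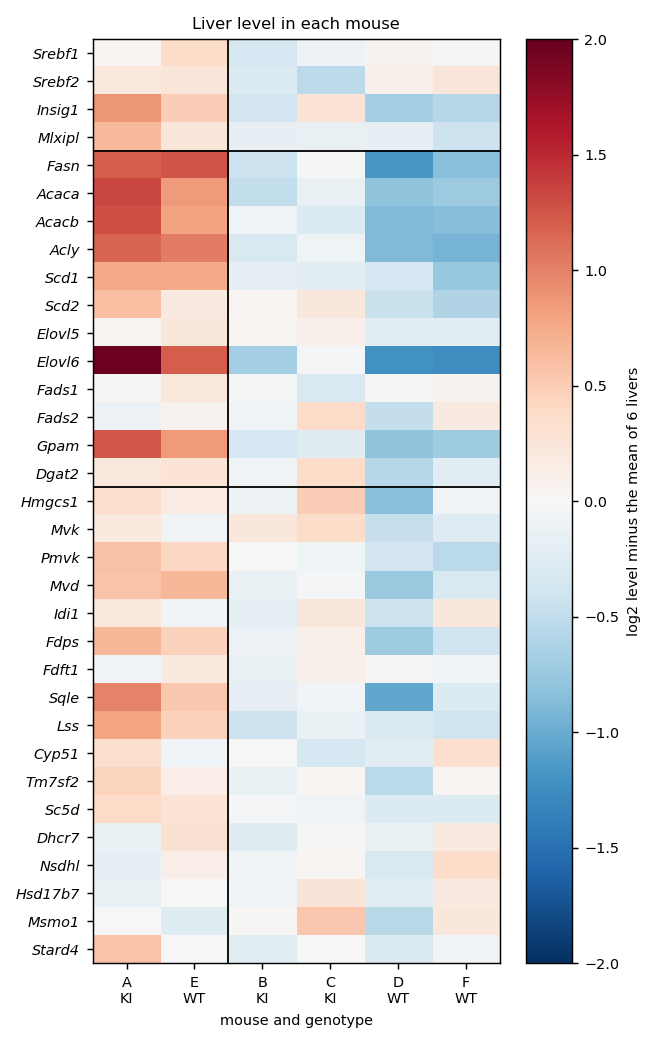
Level of each gene in each liver minus the mean of the 6 livers (colour, log2), with mice A (KI) and E (WT) at left and regulators, lipogenic and sterol genes from top to bottom. The left columns are red for Fasn, Acaca, Acacb, Acly, Scd1, Elovl6 and Gpam in both mice, and the column of mouse D is the bluest for most sterol genes.

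The median correlation between pairs of lipogenic genes, taken on deviations from the genotype means over 6 livers, was 0.77 by Pearson and 0.66 by Spearman over 66 pairs. All pairs share the same 6 arrays, those of mice A and E included. In sterol genes it was 0.55 by Pearson over 136 pairs. The lipogenic value was 0.02 in brain, 0.10 in heart and 0.26 in muscle. No such value was taken over pairs of all genes, so none stands beside these as background.

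Between KI and WT no member passed the adjusted threshold in any tissue. In liver 0 of 33 members passed, with 0% of 14074 genes passing, in brain 0 of 33 with 0% of 16045, in heart 0 of 32 with 0% of 14909, and in muscle 0 of 31 with 0% of 13498. The same held when each mouse's 4 tissues were averaged, and for the test of a difference of the KI effect between tissues, each with 0 of 33 members and 0% of 17177 genes. At an unadjusted limma p under 0.05 stood 1 member in liver (background 11.7%), 0 in brain (0.785%), 0 in heart (1.64%), 1 in muscle (0.852%), 1 in the mean of tissues (3.5%) and 1 in the test between tissues (1.87%). These intervals are wide: the median width of a member's 95% interval on each side was 0.59 for liver, 0.38 for brain, 0.42 for heart and 0.55 for muscle, on the log2 scale.

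In liver the 1 member was Mvk, at 4.64, 4.67 and 4.81 in the KI livers and 3.97, 4.37 and 4.19 in the WT livers. The genotypes did not overlap, as for 19.7% of genes tested in liver, and KI exceeded WT by 0.53 (SE 0.14, limma adjusted p = 0.367). A second Mvk probe gave 0.08. The next smallest were Scd2 (KI minus WT 0.58, SE 0.25, adjusted p = 0.434), and Srebf2 (-0.39, SE 0.20, adjusted p = 0.475), whose second probe gave 0.38, the opposite direction. Fasn stood at 5.52, 3.90 and 4.29 in KI livers and at 3.16, 5.59 and 3.48 in WT livers, so that each genotype held 1 of the 2 high livers. Its difference of 0.49 had a 95% interval from -1.21 to 2.20. The median KI minus WT value was 0.45 over the lipogenic genes and 0.24 over the sterol genes, beside 0.04 over all genes, and the larger within-genotype SD of the lipogenic per-mouse median was 0.85. The lipogenic median was 0.06 without mouse A, 0.14 without D, 0.20 without F, 0.72 without B and 0.90 without E, and the sterol median 0.07 without A, 0.05 without D, 0.36 without E and 0.39 without B.

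The KI brains had Scd1 at 2.87, 2.91 and 3.32 and the WT brains at 2.62, 2.99 and 2.50, a difference of 0.33 (SE 0.19, adjusted p = 1.00). Insig1 and Fasn did not overlap between genotypes, as for 2.86% of genes tested in brain. Insig1 was at -1.14, -0.88 and -1.06 in KI and -1.24, -1.31 and -1.17 in WT (difference 0.22, SE 0.13), and Fasn at -0.37, -0.38 and -0.22 against -0.50, -0.55 and -0.45 (difference 0.18, SE 0.12). The first slide with brain arrays held only those of mice A and D. As the genotypes did not overlap, both differences had to be positive on each slide. They were 0.10 and 0.27 for Insig1 and 0.14 and 0.20 for Fasn. Their adjusted p was 1.00. The median KI minus WT value was 0.09 over lipogenic and 0.08 over sterol genes, beside -0.03 over all genes. Mlxipl (0.45) and Acacb (0.29) also had positive values in brain, and both stood highest in the brain of mouse C, in which all 12 hepatocyte markers were at their highest. Without that brain Mlxipl and Acacb were -0.06 and -0.02. Scd1 and Fasn were highest in the same brain too. In all, 5 of 12 lipogenic and 3 of 17 sterol genes were highest there, beside 16.6% of all genes. Without that brain the differences stayed positive but were smaller, 0.19 for Scd1 and 0.13 for Fasn. The part of hepatocyte RNA in these values was not tested.

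In heart no member had genotypes that did not overlap, while 5.03% of genes did. Sqle came nearest, at -2.27, -2.14 and -2.48 in KI and -2.40, -2.88 and -2.91 in WT hearts. The difference was 0.43 (SE 0.18, adjusted p = 0.971), and 0.43 on each slide that held heart arrays. The second of these slides held only the hearts of mice C and F. Mvk (-0.24, SE 0.16) and Acacb (-0.32, SE 0.23) followed, both lower in KI on each slide. In heart a second Mvk probe gave 0.005 and a second Acacb probe -0.28. The median was 0.10 over lipogenic and -0.09 over sterol genes, beside -0.05 over all genes. Without mouse B these were -0.02 and 0.01, and the sterol median was 0.05 without D, -0.05 without F and -0.14 without E.

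The KI muscles had Fads1 at -1.01, -1.04 and -1.44 and the WT muscles at -1.41, -1.82 and -1.76, with 1 overlap, a difference of 0.50 (SE 0.20, limma adjusted p = 1.00). Sqle was at -0.28, -0.84 and -1.17 in KI and -1.004, -1.61 and -1.82 in WT (difference 0.72, SE 0.31, adjusted p = 1.00). Mlxipl was higher in all 3 KI muscles (5.46, 5.42 and 5.26 against 5.02, 5.19 and 5.04), and Fdft1 lower (2.002, 1.63 and 1.95 against 2.07, 2.06 and 2.22), the only members of 31 that did not overlap, as for 3.54% of genes. For both, a second probe gave the opposite direction, -0.28 for Mlxipl and 0.16 for Fdft1. The median was 0.11 over lipogenic and 0.12 over sterol genes, beside 0.02 over all genes. Neither sign was stable: the lipogenic median was -0.15 without mouse F, -0.03 without A, 0.01 without B and 0.28 without D, and the sterol median -0.02 without A, 0.04 without F and 0.20 without E. Averaged over the 4 tissues of each mouse, Sqle was 0.43 higher in KI (SE 0.16, limma adjusted p = 0.982), with KI means of 1.78, 1.35 and 1.21 against 1.05, 1.09 and 0.91. Mvk had the smallest p in the test between tissues (limma adjusted p = 1.00), while its second probe gave 0.08 in liver and 0.005 in heart.

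**Figure D4:**
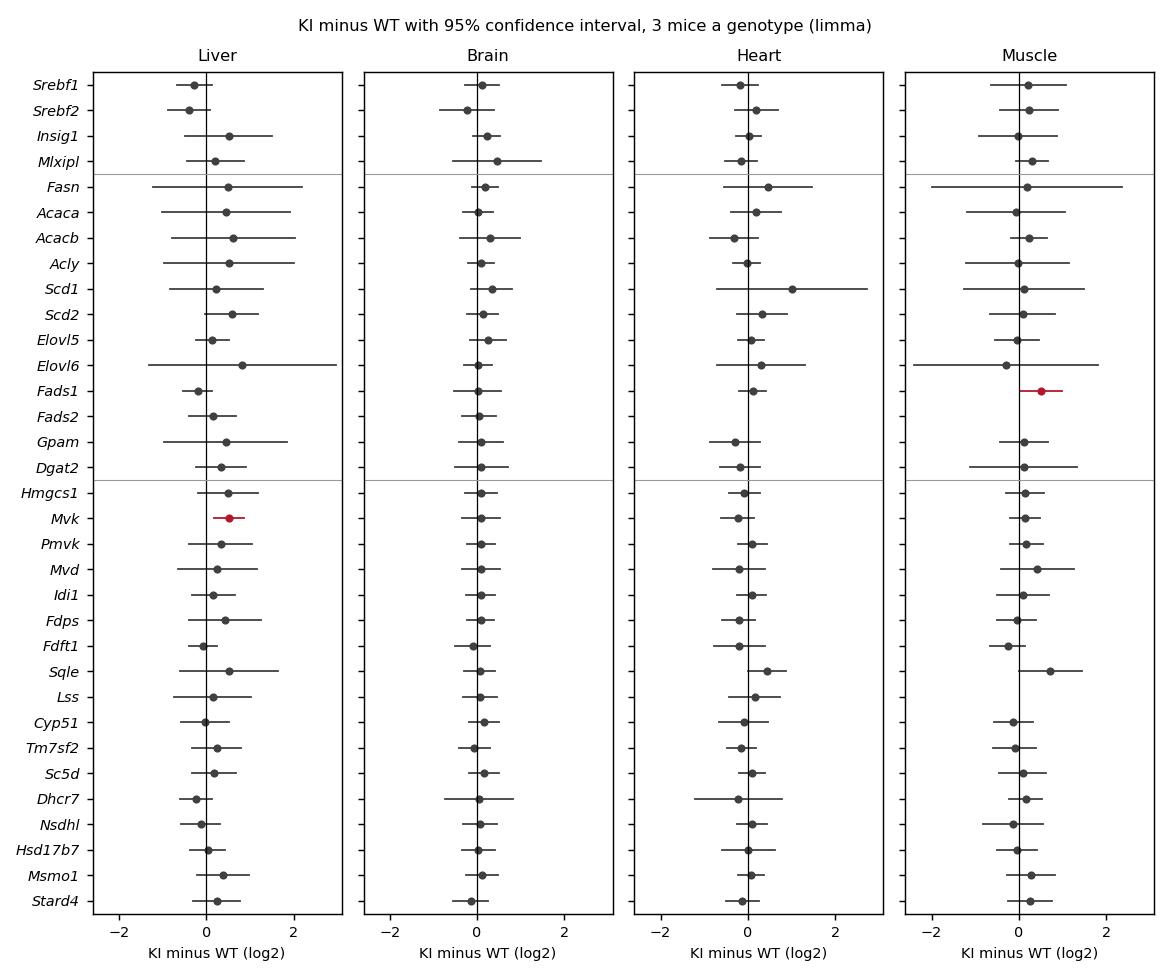
KI minus WT (log2, horizontal axis) of each gene in each tissue, with limma's 95% confidence interval, 3 mice a genotype. Red marks an unadjusted p under 0.05, which holds for Mvk in liver and Fads1 in muscle, and neither passed after adjustment. Blank rows are genes not tested in that tissue (Fads2 in heart and muscle, Lss in muscle), and the widest intervals are those of Fasn, Elovl6 and Scd1.

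Markers of fat cells differed between the samples of heart and of muscle. The 13 adipocyte markers, such as Adipoq and Plin1, had a summed level of 7.94 to 8.37 in KI and 8.07 to 8.41 in WT hearts, and of 8.37 to 9.34 in KI and 8.27 to 9.33 in WT muscles, with 11 to 13 of 13 well above background on each of these arrays. In the heart of KI mouse B, 8 of 13 markers were the highest of 6. Their median was 1.38 against -1.64 to -0.64 in the other hearts, although their summed level, 7.94, was the lowest of the 6. Also highest there were 7 of 12 hepatocyte, 6 of 7 macrophage, 6 of 7 astrocyte and 5 of 8 neuron markers. Fewer were for mammary cells (4 of 12) and cardiomyocytes (2 of 9). That heart had the highest Scd1 (2.36 against -0.74 to 0.35), Fasn (-1.39 against -3.12 to -2.47), Elovl6 (-0.15 against -1.79 to -1.37), Acaca, Scd2 and Fads1, 6 of 11 lipogenic genes beside 21% of all genes. It was also the highest for 3 of 17 sterol genes. KI minus WT in heart was 1.01 for Scd1 and 0.45 for Fasn, and 0.15 and -0.02 without that heart.

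In the muscle of WT mouse F, 9 of 13 adipocyte markers were the lowest of 6, and their median was 2.29 against 2.45 to 4.11 in the other muscles. It had the lowest Fasn (-2.09 against -0.45 to 1.36), Elovl6 (-1.13 against -0.17 to 2.38), Scd1 (2.83 against 4.21 to 5.29), Acaca, Acly and Scd2, again 6 of 11 lipogenic genes, beside 12.3% of all genes. Muscle F was also the lowest for 5 of 16 sterol genes. Elovl6 was -0.30 in KI minus WT in muscle, and -1.35 without mouse F (SE 0.47, limma adjusted p = 1.00). Mouse A had a marker median close to that of F and Fasn at 0.30. Mouse C had a high marker median, 4.05. The median deviation of its lipogenic genes from their muscle means was -0.07, beside 0.26 in D and -0.60 in F. Of the same markers, the brown fat genes Ucp1 and Cidea stood high in the muscles of mice D (2.59 and 4.19) and B (2.91 and 4.12), against -6.61 to -1.89 and -1.71 to 1.04 in the other 4. The muscle of D had the highest Fasn (1.36), Elovl6 (2.38) and Scd1 (5.29) of 6. Without D, KI minus WT in muscle was 0.41 for Elovl6, 0.81 for Fasn and 0.67 for Scd1, and without B it was -0.58, -0.19 and 0.15 (limma adjusted p = 1.00 for each). In the muscle of mouse B, 11 of 12 mammary and 6 of 13 adipocyte markers were highest. Of 11 lipogenic genes 1 was highest there, beside 27.3% of all genes. The part of fat or mammary RNA in these values was not tested.

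**Figure D5:**
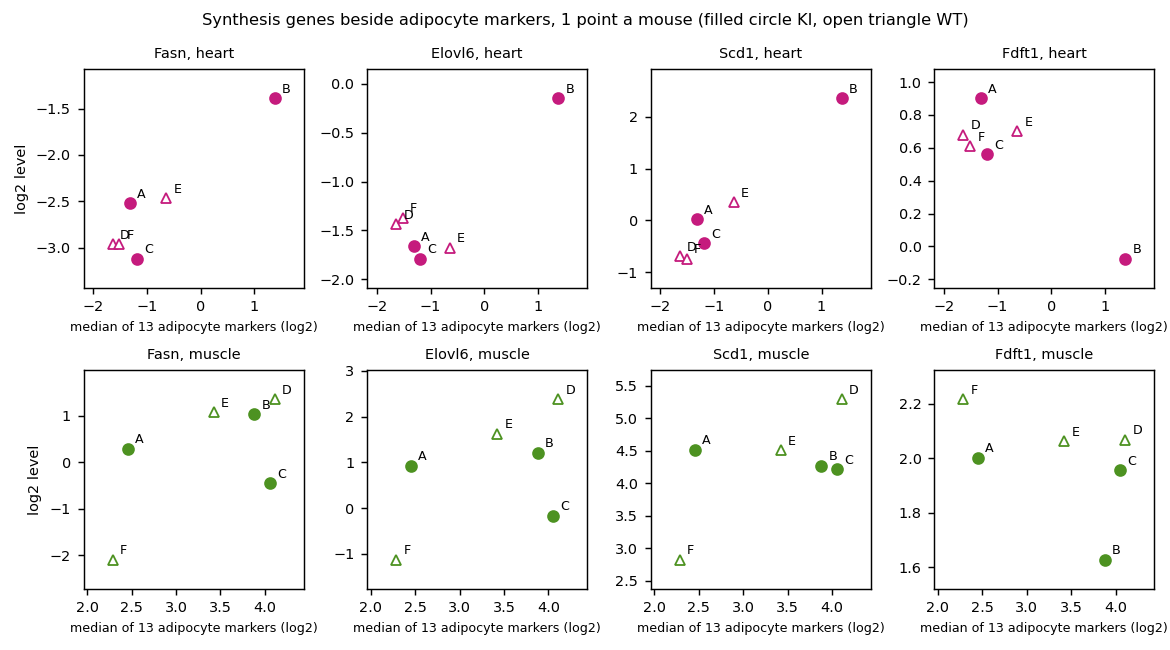
Level of Fasn, Elovl6, Scd1 and Fdft1 (vertical axes, log2) against the median level of 13 adipocyte markers (horizontal axes, log2) in the 6 hearts (top) and 6 muscles (bottom), 1 labelled point a mouse. Heart B stands at upper right and muscle F at lower left for the 3 lipogenic genes, whereas Fdft1 was lowest in heart B and highest in muscle F. Fdft1 does not stand for the sterol branch. Heart B was the highest for 3 of 17 sterol genes, and muscle F the lowest for 5 of 16.

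Other genes of the pathways did not pass the adjusted threshold between KI and WT either. Of the 49 such genes, 46 could be tested for liver, 47 for brain, 45 for heart and 38 for muscle, and 0 passed in each tissue. At an unadjusted p under 0.05, Fads3 (0.54) and Ggps1 (0.38) were higher and Lpin2 (-0.55) and Stard5 (-0.48) lower in KI livers, with adjusted p from 0.357 to 0.422. In heart Soat2, which esterifies cholesterol, was at -4.05, -3.77 and -4.24 in KI hearts and at -4.82, -4.62 and -4.92 in WT hearts, a difference of 0.76 (SE 0.17, adjusted p = 0.971), and in brain and muscle none of these genes stood under 0.05.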

How the data were processed

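RNA of 24 tissue samples was hybridised by the authors to 1-colour Agilent mouse arrays, and the intensity files deposited per array were made with Agilent Feature Extraction 12.0.3.1, per the submitters' processing notes. The processed signal used here is an intensity that the authors background-subtracted and detrended; the deposited flag columns mark outlier spots and probes well above background, and serve as filters. A deposited table of the authors holds a score, the z-score of log signal within each array, and was used only as an alternative. Control spots and outlier spots were left out, log2 of the signal was lowered by each array's 75th percentile, and spots of a probe were averaged. Each gene was taken at the probe with the highest mean over the 24 arrays, for 21368 genes with a symbol among 55681 probes.

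Tests used the limma package (version 3.58.1, functions lmFit and eBayes, under R 4.3.3) with Benjamini-Hochberg adjustment at 0.05 over all genes that the flags put well above background in 3 of 3 arrays of some group: KI against WT within each tissue, on each mouse's average of 4 tissues, and for a difference between tissues, and tissue pairs over all 24 arrays. The study's methods name no array test. Mice are separate animals. Mouse numbers in the labels tie the 4 tissues of 1 mouse together, and do not pair KI with WT mice. The fit was tested on simulated data. Alternatives were quantile normalization, normexp correction (offset 50), the deposited scores, the mean of all probes, other filters, array weights, blocks for mouse and slide, and leaving out each mouse. The number of arrays limits the precision.

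The members and the gene and marker lists were chosen with earlier results of these data known. Genes named with values were a set of regulators and main enzymes, in each tissue those with an unadjusted p under 0.05 and the 3 of smallest p, the 3 widest and 3 narrowest tissue ranges of each branch, and genes not above background in a tissue. The mouse by mouse comparison of livers, and the genes named there or beside another tissue's markers, were chosen after their values were seen.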

Additional observations from a re-analysis of the deposited data

Results flagged for a closer look

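In 12 of the 132 groups of 6 arrays of 1 tissue, 1 array lay far from the other 5 by Dixon's criterion, which chance alone meets in about 5% of groups. In the heart of mouse B, Scd1 (2.36), Scd2 (2.46) and Elovl6 (-0.15) stood high and Fdft1 (-0.0747) low. That array had the highest level of 8 of 13 adipocyte markers, and also of 7 of 12 hepatocyte and 6 of 7 macrophage markers. The part of any of these in the values was not tested. In the brain of mouse C, Mlxipl stood high at -0.00686, where all 12 hepatocyte markers were highest. In the brain of mouse E, Scd2 (6.32), Hmgcs1 (4.50) and Sqle (2.84) stood low, and in the brain of mouse A Idi1 stood high at 2.75. Idi1 stood low in the heart of mouse E (0.28), Mvd high in the muscle of mouse B (0.0760), and Stard4 high in the liver of mouse A (4.22).

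Of the changes of paralog ratios, 3 had mouse B far below the other mice, all against heart. Acaca over Acacb was 2.75 in liver minus heart, Scd1 over Scd2 was 7.501 in liver minus heart, and Elovl6 over Elovl5 was 2.14 in brain minus heart.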

How the results depend on the processing

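Of 670 values under alternative settings, 660 kept direction and side of the threshold or lay within the allowed spread. The KI minus WT medians of both branches changed sign in heart and in muscle when single mice were left out, as given above. Among single genes between tissues, the difference turned sign, without passing the threshold, for Mvk in brain minus muscle with quantile normalization, and for Mlxipl in liver minus muscle and Fdft1 in brain minus muscle with the mean of all probes. Members lower in liver than in heart numbered 2 with quantile normalization and with normexp correction, members lower in brain than in muscle 4 with both, and members lower in liver than in muscle 1 with the mean of all probes. With quantile normalization Fads2 over Fads1 passed for liver minus heart (0.81) and liver minus muscle (1.22), and with the mean of all probes Acaca over Acacb in heart minus muscle (-1.22, adjusted exact p = 0.0893) did not. The cause was not tested. Leaving out 1 mouse at a time, the sterol median of KI minus WT in heart ran from -0.135 to 0.0506, the highest without D, and was 0.00934 without B. No member passed between KI and WT under any alternative run. Leaving out the 4 arrays with high markers of another tissue, and the 2 alternatives on the livers of A and E, were chosen after seeing the data.

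With the mouse as a replicate block, 32 members were higher and 1 lower in liver than in brain, and 0 passed between KI and WT. The block changed no call. Tissues of the same mouse correlated at 0.01 on average over 36 pairs (-0.18 to 0.23), so the pairing by mouse carried little. Signal over background limits Fads2 in heart and muscle and Lss in muscle.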
